A study of Drosophila melanogaster with 2 samples.

Results

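The genes described here encode the subunits of the proteasome in Drosophila melanogaster, and the measurement is how often and how strongly a tagged homeodomain protein, hbn (homeobrain), was found at their transcript starts. Members were the protein-coding genes whose symbol begins with Prosalpha, Prosbeta, Rpn or Rpt followed by a number, which gave 48 of 13968 protein-coding genes. The RefSeq product names of all 48 name the proteasome or its regulatory particle. Of these, 25 encode the core particle and 23 the regulatory particle. The 32 genes without a suffix letter are called main subunits here, and the 16 whose symbol carries R or T after the number are called paralogues (12 with R, 4 with T and 0 with B).

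Chromatin immunoprecipitation with sequencing was done on whole embryos of a transgenic line, strain hbn-GFP, with an hbn-eGFP fusion, collected at 0 to 18 h of age. The labels describe an antibody against GFP, while their antibody field names hbn, the tagged protein; sonicated fragments were 200 to 800 bp long. There are 2 biological replicates in 1 group, both carrying the fusion, and a control experiment named in the labels was not used here. Whole embryos mix every tissue of many stages, the labels do not say in which cells the fusion was made, and the depth of sequencing is unknown because the files used hold peaks and no read counts.

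The proteasome is the protease that degrades proteins tagged with ubiquitin. Its core particle stacks rings of alpha subunits, which form the gate, around rings of beta subunits, some of which cut the substrate. The regulatory particle caps the core: the base holds the Rpt ATPases that unfold substrates and pull them in, and the lid holds the enzyme that removes ubiquitin. In Drosophila, several subunits have a further gene copy, and the copies marked T are known for expression in the testis. In mammals, genes of the proteasome are induced together by a relative of the Drosophila factor cnc through the antioxidant response element; in flies, many broadly expressed genes carry the site of the factor DREF or the element called motif 1 in their promoters.

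A gene is called bound when the summit of an entry in the conservative set, the peaks reproducible between the replicates at an irreproducible discovery rate (IDR) of 0.01, lay within 500 bp of a transcript start of that gene. The following stretches lie upstream of bound members among the 8 with the highest signal. They are shown because they hold the sequence most often found at these summits, the DREF core TATCGA on either strand, in capitals, or, for Rpn10, because they do not. They are intergenic, read 5′ to 3′ on the strand of the member from the RefSeq copy of the dm6 assembly, and the spans are chr3R:29153375-29153523 for Rpn2, chr3L:14999667-14999855 for Prosbeta2, chr3L:16582847-16583027 for Rpn12 and chr3L:21536914-21536999 for Rpn10, all on the plus strand. Within these stretches, Rpn2 has 2 separate cores and Rpn12 has 1. In the Prosbeta2 stretch the core extends to the full DREF site TATCGATA, which reads the same on both strands. Rpn12 also has a full site, centred at -212.5 bp from its start and outside its stretch. The site in the Prosbeta2 stretch lies near the start of the neighbour mRpL39, which is 285 bp upstream of Prosbeta2. The strongest summit at Prosbeta2 is also nearer to mRpL39 (89 bp) than to Prosbeta2 (196 bp). Another full site, outside the stretch, is centred at -6.5 bp from the start of Prosbeta2 itself.
Rpn2: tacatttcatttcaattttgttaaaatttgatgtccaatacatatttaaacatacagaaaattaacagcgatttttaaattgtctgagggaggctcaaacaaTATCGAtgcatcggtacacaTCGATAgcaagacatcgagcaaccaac
Prosbeta2: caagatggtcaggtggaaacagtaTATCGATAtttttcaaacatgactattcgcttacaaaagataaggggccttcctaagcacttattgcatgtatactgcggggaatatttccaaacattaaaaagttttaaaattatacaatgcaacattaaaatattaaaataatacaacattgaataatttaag
Rpn12: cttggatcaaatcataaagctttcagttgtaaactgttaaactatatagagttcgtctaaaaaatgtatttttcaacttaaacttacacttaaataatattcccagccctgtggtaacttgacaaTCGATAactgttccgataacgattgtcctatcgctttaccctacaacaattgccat
Rpn10: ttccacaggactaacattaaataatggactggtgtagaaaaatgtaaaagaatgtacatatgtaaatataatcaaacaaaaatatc

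The next sequences come from main subunits that were not bound. Rpn1 has a DREF core upstream of its start, and Rpn1, Rpn7 and Prosalpha2 each have motif 1, GGTCACAC, at or just after the start. Motif 1 and any DREF core are in capitals. The stretch upstream of Rpn1 is chr3L:19914901-19915050 on the plus strand, and the 30-base sites are chr3L:19915039-19915068 for Rpn1 on the plus strand, chr3R:22462026-22462055 for Rpn7 on the minus strand and chr3R:12431327-12431356 for Prosalpha2 on the plus strand. In Rpn7 the full DREF site and motif 1 stand in the same 30 bases.
Rpn1 upstream: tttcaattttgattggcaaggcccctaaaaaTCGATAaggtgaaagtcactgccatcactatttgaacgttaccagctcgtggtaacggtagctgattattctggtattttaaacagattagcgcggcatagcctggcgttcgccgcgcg
Rpn1 site: gttcgccgcgcGGTCACACtgcaaaaagcg
Rpn7 site: aattTATCGATAattttggGGTCACACtgg
Prosalpha2 site: attcagcattcGGTCACACtgccgcccaat

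The main subunit genes were bound at a share well above that of protein-coding genes at large. Most paralogues were not bound, but they are too few to be set apart from all genes. Of the 48 members, 24 were bound (50%, 95% Wilson interval 36.4 to 63.6), beside 26.5% of all 13968 protein-coding genes. Of the main subunits, 22 of 32 were bound (68.8%, 51.4 to 82.0), and of the paralogues 2 of 16 (12.5%, 3.5 to 36). The interval of the paralogues includes the 26.5% of all genes. The intervals of main subunits and paralogues do not overlap; the difference was not tested, because the members were chosen with results of these data known. The intervals cover the number of genes counted only.

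The share bound was much the same in each piece of the main complex. In the alpha ring 5 of 7 main subunits were bound, and in the beta ring also 5 of 7 (71.4% each). In the base, taken as Rpt1 to Rpt6 with Rpn1, Rpn2, Rpn10 and Rpn13, 7 of 10 were bound (70%). In the lid, taken as the other main Rpn genes, it was 5 of 8 (62.5%). Genes that the symbol rule does not reach, such as Sem1, which was not bound, are not counted here. Within these, 5 of the 6 main ATPase genes and 7 of the 12 main Rpn genes were bound. The intervals of the rings, the base and the lid all overlap between 39.7% and 86.3%, so these numbers of genes cannot separate them. Counted with their paralogues, 11 of 25 core particle genes (44.0%) and 13 of 23 regulatory particle genes (56.5%) were bound, and the core has 11 of the 16 paralogues.

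**Figure D1:**
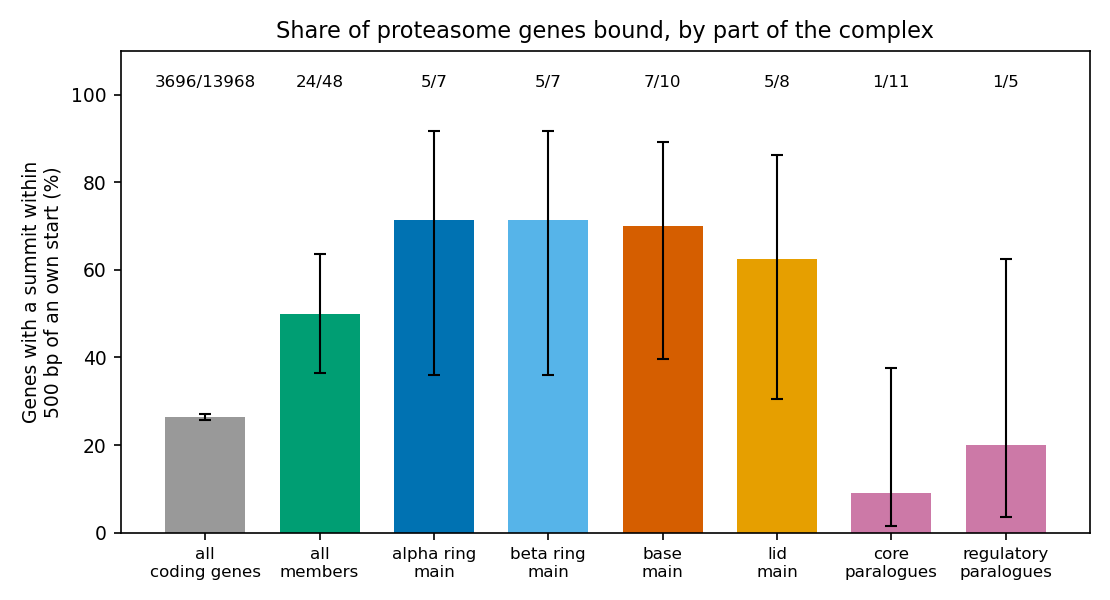
Percent of genes with a conservative summit within 500 bp of an own start, for all protein-coding genes, all members, the main subunits of each piece of the complex and the paralogues. Bars are shares, error bars are 95% Wilson intervals over genes, and the counts stand above; the main subunits lie between 62.5% and 71.4% in each piece, while 1 of 11 core paralogues and 1 of 5 regulatory paralogues were bound.

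In each replicate alone, members had a summit at a higher share than all protein-coding genes. In the set called from replicate 1, 25 members had a summit within 500 bp of an own start (52.1%), beside 24.5% of protein-coding genes. In the set called from replicate 2, 20 members did (41.7%), beside 17.6% of protein-coding genes. With a conservative summit and a summit in both of these sets required, 20 members were left (41.7%, beside 16.5% of protein-coding genes), all of them main subunits. With only the conservative entries at or above the median signal of 118.73 counted, 17 members were left (35.4%), 16 of them main subunits, beside 17.0% of protein-coding genes, and the core particle then had 7 bound genes in place of 11. Replicate 2 gave fewer calls over the whole genome, and the 4 bound members absent from its set were Rpn11, Rpt6, Prosbeta2R2 and Rpt3R.

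Among bound members, the deposited signal ranged from 84.51 to 1028.31 with a median of 167.30, beside a median of 154.66 over all bound protein-coding genes. The scale of the signal is not stated, so a value is read only against others of the same list; for each gene below, the conservative value is followed by those in the ranked lists of replicate 1 and replicate 2. Of the 24 bound members, 13 lay above the median of all bound genes (54.2%), so the level of the typical bound member was close to that of any bound gene. At the top of the range, 3 of the 24 had an entry among the 100 strongest of the 3592 conservative entries (12.5%), beside 3.65% of bound protein-coding genes (135 genes). The share of members rests on 3 genes, and the difference was not tested.

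The highest signal was at Rpn6, the lid subunit whose arm clamps the lid to the core. Its entry had a signal of 1028.31, with 631.11 in replicate 1 and 376.59 in replicate 2, and ranked 2 among all conservative entries. The summit, at chr2R:14752394, lay 123 bp upstream of the nearer of the 2 starts of Rpn6 (FBgn0028689) and 516 bp from the first, so it counts for Rpn6 only through the internal start. The start of ave lies 127 bp from the same summit. The rest of the lid was weaker. Rpn12 (FBgn0028693), a small scaffold subunit and a gene of 1 exon, had 255.84, with 169.31 and 91.35, from a summit 81 bp upstream. Rpn5 and Rpn3, also scaffold subunits, had 187.51 and 157.98. The strongest summit of Rpn5 lay 325 bp upstream of its start and 94 bp from that of Hat1. A weaker summit of 66.06 lay 102 bp upstream of Rpn5. Rpn11 (FBgn0028694), the deubiquitinating enzyme, had 90.79, with 54.64 and 46.92, and its summit was the farthest from the own start of any bound member, 384 bp upstream; the next member beyond the window was Rpn13, with its nearest conservative summit at 2177 bp.

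In the base, the signals were highest at a ubiquitin receptor and a scaffold. Rpn10 (FBgn0015283), which binds ubiquitin chains, had 489.68, with 317.93 in replicate 1 and 179.24 in replicate 2, from a summit 14 bp downstream of its start at chr3L:21537000, and ranked 84. It also had a weaker summit of 45.08 at 150 bp downstream. Rpn2 (FBgn0028692), the large scaffold that carries Rpn13, had 387.39, with 255.89 and 132.02, from a summit 49 bp upstream of the start. Among the ATPases, Rpt5 (FBgn0028684) was highest with 241.61, with 154.30 and 80.73; the others bound were Rpt1 with 189.50, Rpt3 with 153.31, Rpt2 with 117.44 and Rpt6 with 110.32. Of the main base genes, Rpn1, Rpn13 and Rpt4 were not bound.

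In the core particle, 1 alpha gene and a pair of beta genes stood above the rest. Prosalpha7 (FBgn0023175) had 665.78, with 454.46 in replicate 1 and 214.94 in replicate 2, from a summit 68 bp upstream of its start, and ranked 21. The other 4 bound main alpha genes, Prosalpha3 to Prosalpha6, lay between 89.32 and 146.22, all below the median of bound genes. Prosalpha3 (FBgn0261394) was the lowest of the main subunits with 89.32, with 73.69 and 52.70. In the beta ring, the subunits that hold the active sites are Prosbeta1 (caspase-like), Prosbeta2 (trypsin-like) and Prosbeta5 (chymotrypsin-like), and all were bound. Prosbeta2 (FBgn0023174) had 340.19, with 213.19 and 113.31; its main summit lay 196 bp upstream, and a weaker summit of 97.61 lay 9 bp downstream of the start. Prosbeta1 (FBgn0010590) had 321.49, with 204.15 and 122.64. Prosbeta7, Prosbeta5 and Prosbeta6 followed with 209.64, 176.62 and 103.20.

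**Figure D2:**
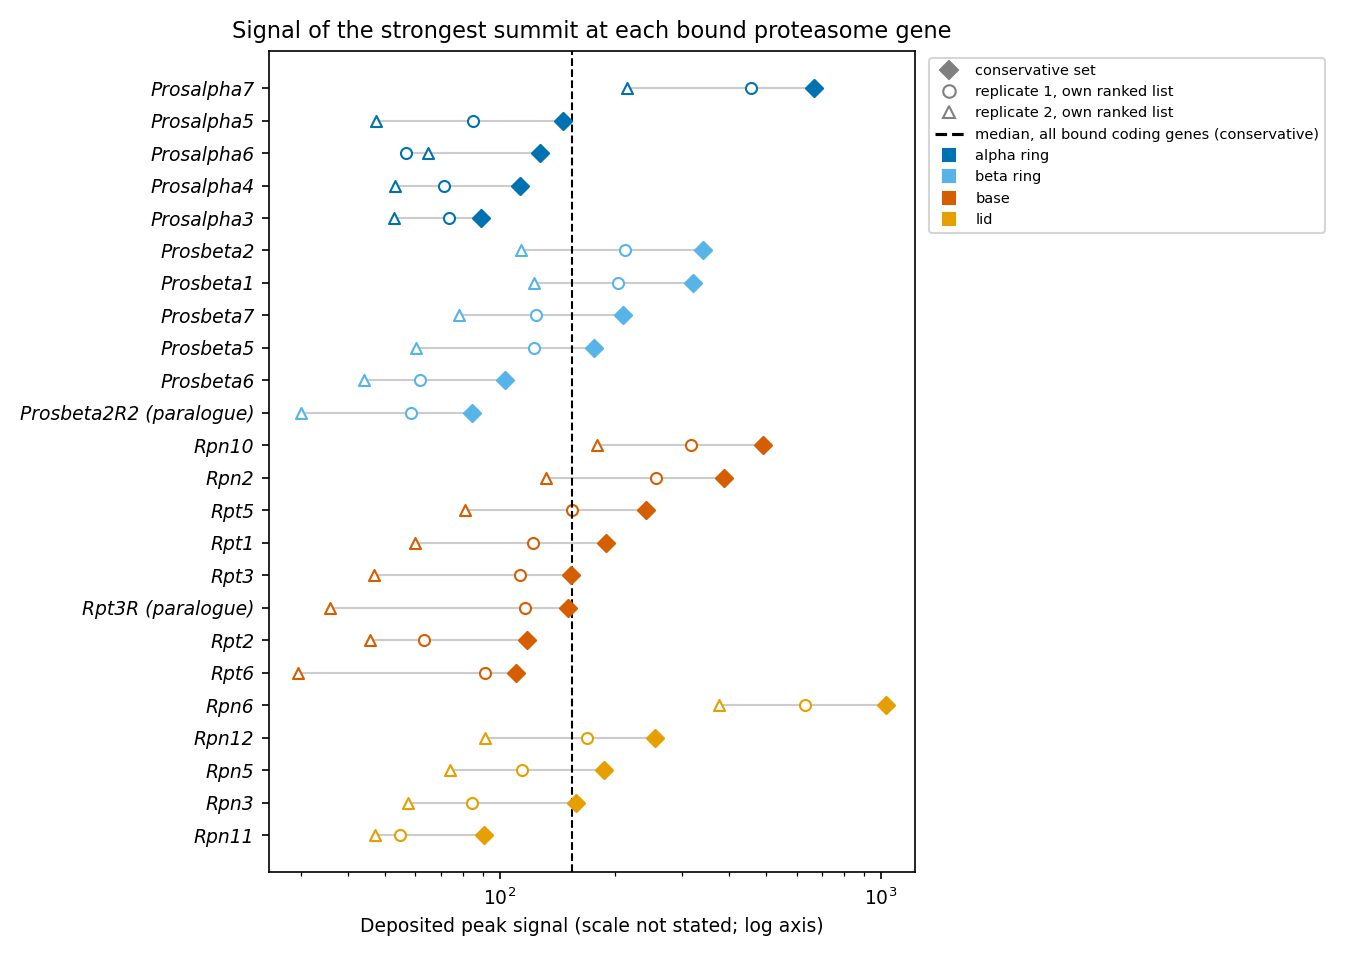
Deposited signal on a log axis for the strongest own-start summit of the 24 bound members, grouped by piece of the complex. Diamonds are the conservative set, circles replicate 1 and triangles replicate 2, each on the scale of its own list; the dashed line is the conservative median of all bound protein-coding genes, 154.66. Rpn6, Prosalpha7 and Rpn10 are the 3 highest of these members in each list.

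All 24 bound members had an entry at an own start in the ranked list of each replicate. The ratio of the replicate 1 to the replicate 2 signal had a median of 1.78 and ran from 0.88 to 3.24, beside a median of 1.65 over all bound protein-coding genes. The lowest ratio was that of Prosalpha6, with 56.82 in replicate 1 and 64.56 in replicate 2. Over the 24 members, which share both libraries, the replicate signals had a Spearman rho of 0.81 and a Pearson r on log2 values of 0.91; over 3663 bound genes these were 0.86 and 0.87. The conservative set keeps entries that agree between the replicates, so part of this likeness is fixed by how the genes were called.

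The summits sat close to the starts. The median position over bound members was 58 bp upstream of the own start (-58 bp), beside -60 bp over all bound protein-coding genes, and 20 of 24 lay upstream (83.3%, beside 82.0%). Within 100 bp of the own start lay 19 of 24 (79.2%, beside 60.3%). No interval was computed for this share, which rests on 24 genes, and the difference was not tested. All these positions are from the nearest own start. From the first start, the summits of Rpn6, Rpt3R and Prosbeta7 lie downstream, at 516, 214 and 122 bp. A further own-start summit was present at 4 members, Prosalpha5, Prosbeta2, Rpn5 and Rpn10.

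Many of these summits also lay near the start of a neighbour. At 16 of 24 bound members the strongest summit also lay within 500 bp of the start of another protein-coding gene (66.7%, beside 56.5% of all bound genes). At 18 of 24 the own start was the nearest to it (75%, beside 72.6%). The exceptions were Prosbeta1, whose summit was nearest to Rrp42, Prosbeta2 (mRpL39), Prosbeta2R2 (CG1116), Rpn5 (Hat1), Rpt3 (CG11122) and Rpt5 (RanBP3). At Prosbeta1 both starts were almost equally near, at 62 bp and 59 bp from the summit. At Rpt5 the start of RanBP3 was 22 bp from the summit and that of Rpt5 was 64 bp. At Rpt3 the difference was wider, 300 bp to its own start and 75 bp to that of CG11122. It was also wider at Rpn5, 325 bp to its own start and 94 bp to that of Hat1. At the other 10 shared summits the own start was the nearer, as at Prosalpha6, 2 bp from its own start and 137 bp from that of Npc1a.

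Of the 10 main subunits that were not bound, 9 had an entry below the conservative threshold. Their ranked signals from both replicates together ran from 29.91 to 79.38 with a median of 50.49, beside a median of 32.32 over unbound protein-coding genes with an entry (7034 of 10272 genes, 68.5%). Counting any entry of that ranked list, 31 of 32 main subunits and 9 of 16 paralogues had one within 500 bp, 40 members in all (83.3%), beside 76.8% of protein-coding genes. An entry of that list need not be reproducible between the replicates. Over these 9 genes its highest −log10 IDR ran from 0.137 at Prosbeta4 to 1.994 at Rpn13. It was 0.217 at Rpn1, 0.297 at Rpn7, 0.358 at Prosbeta3, 0.420 at Rpn8, 0.686 at Prosalpha2, 1.042 at Rpt4 and 1.896 at Rpn9. An entry alone therefore does not show weak binding.

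In the base, Rpn13 (FBgn0033886), a ubiquitin receptor, missed the threshold most narrowly. It had 79.38, with 50.55 in replicate 1 and 26.04 in replicate 2, was in the replicate 1 set, and its highest −log10 IDR was 1.994, against 2.000 for the lowest conservative entry. Rpn1 (FBgn0028695), the scaffold that docks ubiquitin shuttle proteins, had 59.07, with 44.71 and 36.49. Rpt4 (FBgn0028685), the ATPase, had 46.04, with 23.02 and 21.00. All 3 had entries in both replicates, but of these only that of Rpn13 was in a set called from a replicate.

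In the lid, Rpn8 (FBgn0002787), the inactive partner of Rpn11, had 53.75, with 34.59 in replicate 1 and 17.84 in replicate 2. Rpn9 (FBgn0028691), a scaffold subunit, had 50.49, with 30.81 and 30.07, and a −log10 IDR of 1.896. Rpn7 (FBgn0028688), another scaffold subunit, had 29.91, with 11.87 and 11.81, the lowest of the unbound main subunits with an entry. All 3 had an entry in each replicate, and none was in a set called from a replicate.

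In the core, Prosalpha2 (FBgn0086134) had 55.36, with 37.72 in replicate 1 and 29.12 in replicate 2. Prosbeta3 (FBgn0026380), a structural beta subunit, had 38.14, with 16.14 and 19.90. Prosbeta4 (FBgn0032596), also structural, had 34.55, with 8.31 in replicate 2 and no entry in replicate 1. Prosalpha1 (FBgn0263121) had no entry at its start in any list, the 1 main subunit of which this holds. The nearest conservative summits of the 10 unbound main subunits lay 2177 to 57324 bp away, with a median of 5810 bp.

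A smaller share of the paralogues than of the main subunits was bound. The bound ones were Prosbeta2R2 and Rpt3R, and both were absent from the replicate 2 set. Prosbeta2R2 (FBgn0037296), a copy of the trypsin-like subunit, had 84.51, the lowest of all bound members, with 58.38 in replicate 1 and 30.02 in replicate 2. Its summit lay 99 bp upstream of its start but 30 bp from that of CG1116. Rpt3R (FBgn0037742), an ATPase copy, had 150.88, with 116.26 and 35.87, close to the 153.31 of Rpt3, and its own start was the nearest, at 82 bp. The 14 unbound paralogues lay 6451 to 89984 bp from the nearest conservative summit, with a median of 43596 bp, and the 7 with a ranked entry had signals of 3.13 to 32.49, with a median of 24.76. This range overlaps that of the unbound main subunits only at its top.

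Of the 16 paralogues, 11 belong to a main subunit that was bound, and 2 of these 11 were bound, beside the 26.5% of all genes, a count too small to set them apart. The 9 without a call include Prosalpha3T, Prosalpha4T1, Prosalpha4T2 and Prosalpha6T, the 4 T copies, and Rpn12R. The other 5, Prosalpha1R, Prosbeta4R1, Prosbeta4R2, Rpn13R and Rpt4R, belong to main subunits that were not bound. In gene structure, 10 paralogues had fewer exons than their main subunit, 6 had the same number and 0 had more, and 6 paralogues and 4 main subunits had a single exon. Members rarely sit together: only Prosalpha1 with Prosalpha1R, 3093 bp apart, and Prosbeta4R1 with Prosbeta4R2, 2348 bp apart, had starts within 10 kb, and none of these 4 genes was bound.

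Of the 9 motifs searched, the DREF core was present in the most main subunit promoters. In the 300 bases from 250 before to 50 after the start, TATCGA on either strand was present at 16 of 22 bound main subunits (72.7%), 4 of 10 unbound ones (40.0%) and 4 of 16 paralogues (25.0%), beside 27.0% of all protein-coding promoters. Over all genes it stood in 57.7% of bound and 16.0% of unbound promoters. The full DREF site TATCGATA, which contains the core on both strands, was present at 11 of 32 main subunits (34.4%) and 1 of 16 paralogues (6.25%, Rpt3R), beside 8.94% of all promoters. Over all genes the full site stood in 25.9% of bound and 2.82% of unbound promoters. Among bound main subunits it stood in 9 of 22 (40.9%, 23.3 to 61.3), an interval that includes the 25.9%. The stretches of Rpn2 and Rpn12 printed above show matches to the core only. The full site in the printed Prosbeta2 stretch lies farther upstream than this window, which holds other matches of Prosbeta2. A match is a description of letters and not of a protein at the site.

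Within 100 bp of the strongest summit, the core was present at 18 of 24 bound members (75%, 55.1 to 88.0), beside 53.8% of 3086 conservative summits at protein-coding starts. The full site was present at 10 of 24 (41.7%), beside 24.4%. The nearest core lay 2.5 to 69.5 bp from the summit with a median of 33.5 bp, beside 23.5 bp at all such summits. The 18 members with a core had a median of 152.09 (84.51 to 1028.31) and the 6 without one a median of 182.06 (112.85 to 489.68), ranges that overlap almost whole, while over all such summits the medians were 183.37 with a core (1660) and 86.79 without (1426). Of the 6 without, Rpn3 and Prosbeta5 have a core 106.5 and 130.5 bp from the summit. Rpn10, with the third highest signal of all members, has no core in the stretch printed above or elsewhere in its promoter window.

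Motif 1 stood mostly at main subunits that were not bound, whereas over all genes it was commoner at bound promoters. GGTCACAC stood in 6 main subunit promoters, and 5 of these 6 genes were not bound: Prosalpha2, Prosbeta3, Rpn1, Rpn7 and Rpn8. The bound one was Prosalpha4, with a signal of 112.85. Motif 1 was thus present at 1 of 22 bound main subunits (4.55%), 5 of 10 unbound ones (50%) and 0 of 16 paralogues, beside 7.52% of all promoters. Over all protein-coding genes it was at 12% of bound and 5.93% of unbound promoters, and 42.1% of genes with it were bound, beside 25.2% of genes without it. Of the 5 unbound main subunits, Prosbeta3 has the motif at -212.5 bp, close to the start of its neighbour Iru, 230 bp upstream. Rpn8 was searched only at its reference start, chr2R:24403005, and not at its first start, chr2R:24400028.

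Taking both elements, main subunits with a DREF core and no motif 1 were bound in 16 of 17 cases (94.1%), beside 55.1% of the 3427 protein-coding genes of that class. Main subunits with a core and motif 1 were Rpn1, Rpn7 and Rpn8, and 0 of 3 were bound, beside 69.3% of 349 genes. With neither element, 5 of 9 main subunits were bound (55.6%), beside 14.4% of 9490 genes. Rpn6 is among these 5 only because the window was set at its first start: a core lies 53.5 bp from its summit near the internal start. The exception in the first class was Rpn9, which has the full site 29.5 bp downstream of its start and an entry just under the threshold. The classes hold few members, were read after their values were seen, and were not tested.

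**Figure D3:**
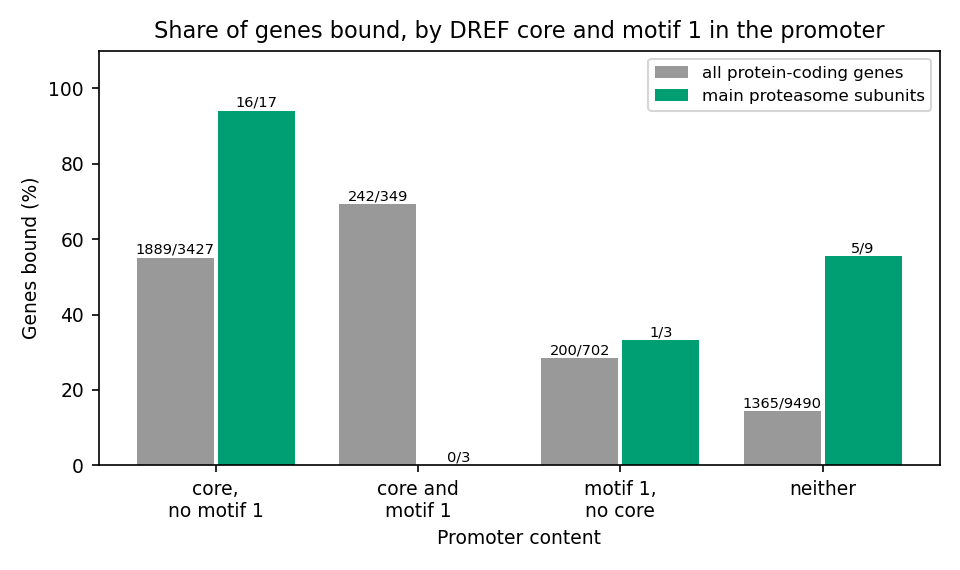
Percent of genes bound, split by whether the promoter window holds a DREF core, motif 1, both or neither, for all protein-coding genes (grey) and main proteasome subunits (green), with counts above the bars and no error drawn. With a core and no motif 1, 16 of 17 main subunits were bound; with both, 0 of 3, where all genes gave 69.3%.

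**Figure D4:**
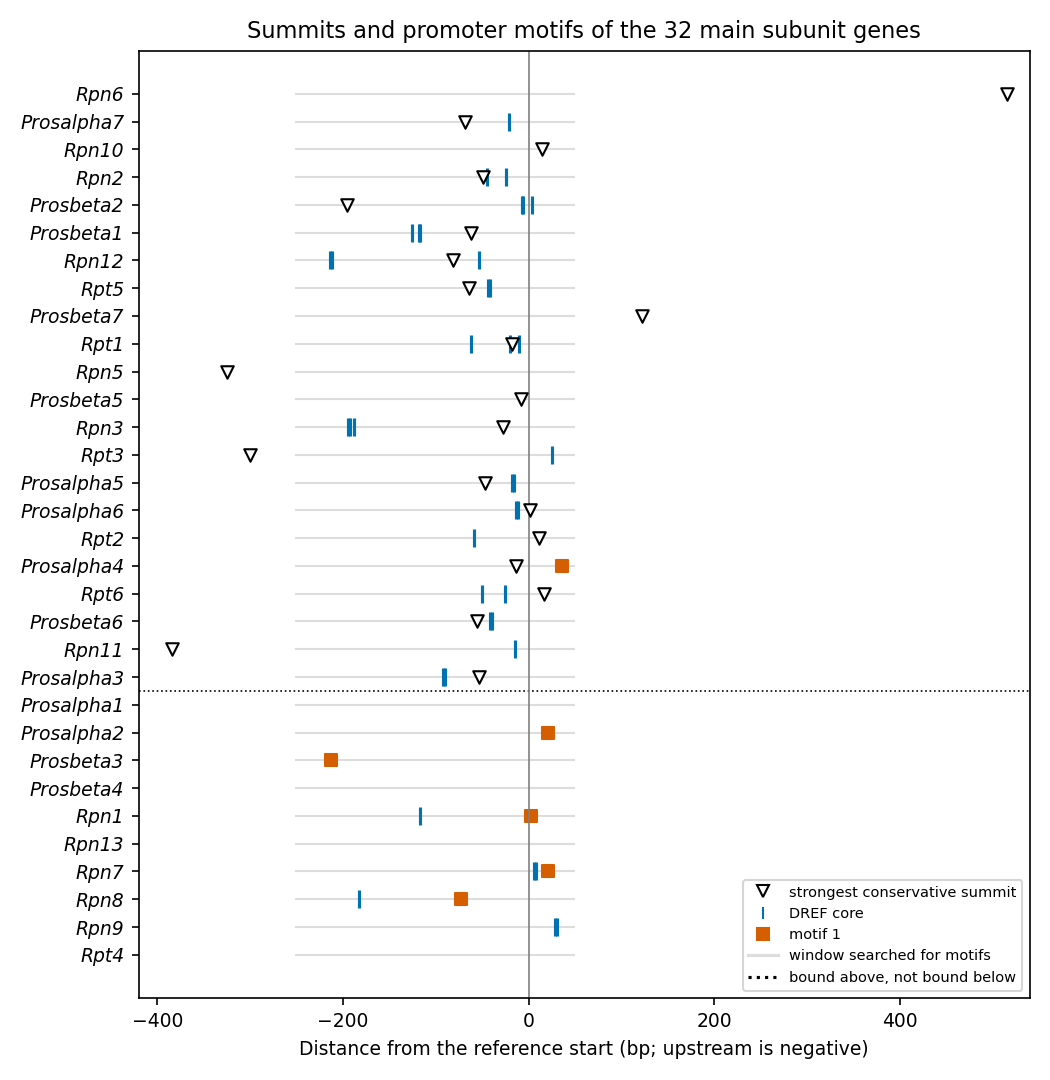
Position of the strongest conservative summit (triangles), DREF cores (blue ticks) and motif 1 (orange squares) from the reference start of the 32 main subunit genes, with bound genes above the dotted line in order of signal. Motifs were searched only along the grey line. The Rpn6 summit is drawn from the first start, 516 bp away, though it lies 123 bp upstream of the internal one. Likewise, the Prosbeta7 summit is drawn 122 bp downstream of the first start, though it lies 67 bp upstream of the internal one. Of the 6 motif 1 squares, 5 are below the line.

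The antioxidant response element TGACNNNGC, through which a cnc relative acts on proteasome genes in mammals, was present at 1 of 22 bound main subunits (4.55%) and 4 of 10 unbound ones (40.0%), beside 8.47% of all promoters. These were Rpt6 among the bound and Prosalpha2, Prosbeta3, Rpn1 and Rpn7 among the unbound, all 4 of which also have motif 1, and at Prosbeta3 and Rpn1 a match overlaps motif 1. The homeodomain core TAATTA, the type of sequence that proteins of the family of hbn are known to bind, stood in 5 of 48 member promoters (10.4%, 4.53 to 22.2), beside 20.0% of all promoters, and at 1 of 24 member summits (4.17%, 0.739 to 20.2), beside 11.9%. Both intervals include the share they stand beside, so these counts do not show a lower share at members. The E-box CAGCTG and the GAGA element GAGAG were each at 0 of 24 member summits, beside 18.0% and 22.7%. The promoters of members were also poorer in G and C, with a median of 32.8% beside 38.0% of all promoters, and the part of base composition in these shares was not tested.

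Of 24 genes that work with the proteasome, 12 were bound (50%, 31.4 to 68.6), beside the 26.5% of all genes, with a median signal of 261.67. The highest were rngo, a ubiquitin receptor, with 413.24, and TER94, the ATPase that extracts ubiquitinated proteins, with 368.59. Its cofactors Npl4 and Ufd1 had 280.39 and 263.49, and p47 was not bound. The shuttle protein Ubqn had 295.68 and ref(2)P, the autophagy receptor, 272.77. Of the regulators of the particle, PI31 had 238.92 and REG, the alternative cap, 111.73, whereas the assembly factor Pomp and the deubiquitinating enzymes Uch-L5 and Usp14 were not bound. The stress factor cnc had 68.86 and its repressor Keap1 259.85, while the cnc partner maf-S was not bound. Some genes without a call had higher signals in the replicate lists than cnc, which had 48.61 in replicate 1 and 37.49 in replicate 2. Pomp had 83.07 and 44.17, and Uba1, also not bound, had 96.72 and 50.19. Of the ubiquitin genes, RpS27A was bound with 82.80, and RpL40, Ubi-p5E and Ubi-p63E were not.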

How the data were processed

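The samples were 2 biological replicates of whole embryos of strain hbn-GFP. Entries were deposited on dm6, per the labels; which aligner and peak caller were used is not given in the sources used here. Every entry carries the authors' deposited signal, of unstated scale, and the authors' deposited score, which runs up to 1000 and has a lowest value of 830 in the thresholded sets. The ranked lists also hold the authors' deposited −log10 of the IDR. The conservative set (3595 entries, 3592 on the 7 arms and chromosomes used) was the main set. Replicate values came from the ranked list of each replicate; 2 signal columns of pair members in each ranked list were not used, since their order is not stated.

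Gene models were Ensembl release 115 for BDGP6, the assembly dm6 also is, and sequence was RefSeq's copy of it. Python 3.11.15, NumPy 2.4.6, SciPy 1.17.1 and Matplotlib 3.10.9 were used, and the summit assignment and motif search were tested on simulated data. For a gene with several summits the strongest was taken. Motifs were searched on both strands within 100 bp of summits and from 250 bp before to 50 bp after the reference start. Intervals are Wilson's at 95% and cover the genes or windows counted, not depth, which is unknown. No test was run across members: counts and medians stand beside those of all protein-coding genes.

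The members, the motifs and the gene lists were chosen with earlier results of these data known. Values in each replicate are given for the 8 bound members with the highest signal, the 3 with the lowest, every main subunit not bound, every bound paralogue and the members nearest to the window's edge; pathway genes come from a list of 24 names. Alternatives were the pooled and single-replicate sets, a stricter IDR, a signal minimum, other windows, other ways to assign starts and other motif windows.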

Additional observations from a re-analysis of the deposited data

How the results depend on the processing

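Of 63 recomputed values, 58 stayed within the limits set for a count (1.5 times) or another value (its spread or interval), and 5 moved. Counting only entries at or above the median signal left 7 bound core particle members in place of 11. The bound paralogues moved most easily. Their 2 calls became 0 at an IDR of 0.001, 1 with the signal minimum and 1 where the start nearest to the summit had to belong to the member, and ran from 0 to 2 with either replicate left out: 0 without replicate 1, whose remaining set is the smaller. The share of all protein-coding genes fell to 17.4%, 17.0%, 22.0% and 17.6% under these 4 settings, and the cause was not tested. Bound main subunits ran from 16 to 23 under the 10 alternatives. No paired analysis was possible because there is 1 group. Depth is unknown, so an unbound gene is one not called at this depth.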

Other observations

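Other multi-subunit complexes of broadly expressed genes, from lists chosen with earlier results known, are given for comparison, with 95% Wilson intervals and no test. Of the COP9 signalosome genes, whose complex resembles the lid in architecture, 6 of 9 were bound (66.7%, 35.4 to 87.9), with a median signal of 117.59. Of the cytosolic ribosomal protein genes matched by symbol, 46 of 93 were bound (49.5%, 39.5 to 59.4), with a median of 168.82 and a highest value of 790.91. Of the chaperonin CCT genes, 4 of 8 were bound (50%, 21.5 to 78.5), with a median of 265.67. All protein-coding genes gave 26.5% and 154.66, and the interval of the chaperonin includes that share.

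The GAGA element stood in 6 of 16 paralogue promoters (37.5%) and 3 of 32 main subunit promoters (9.38%), beside 30.2% of all promoters. The TATA box letters TATAAA stood in 13 of 32 main subunit promoters (40.6%) and 5 of 16 paralogue promoters (31.2%), beside 45.3%. The E-box CACGTG was in 0 of 48 member promoters, beside 4.25%.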
